A study of Mus musculus with 58 samples.

Results

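Nascent RNA was compared between RBBP5-FKBP cells treated with dTAG-13 for 24 h and the same cells at 0 h, by SLAM-seq. The comparison used 6 of the 58 libraries of the series, 3 at each of these times, picked by their line, assay and time labels. In SLAM-seq, RNA made during a pulse of 4-thiouridine (4SU) carries the analogue, and iodoacetamide treatment makes its sites read as C in place of T. Cells were given 100 µM 4SU for 60 min before lysis, so a read with a T-to-C conversion (a T>C read) came mostly from RNA made in that last stretch, whereas the total reads of the same library count old and new RNA together. Libraries were made from the 3′ ends of mRNA with QuantSeq, and both read classes were counted over annotated 3′ UTR intervals and summed per gene.

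Both groups were mouse E14 embryonic stem cells of 129/Ola background, grown in serum with LIF, in which both alleles of Rbbp5 carried an FKBP12-variant degron and HA tags at the stop codon, followed by a P2A peptide and a neomycin resistance gene. The line was grown from single sorted cells, so it is a clone, and no parental library without the degron was compared here. The 0 h libraries therefore carry the tagged allele as the 24 h libraries do, and the agent that differs is dTAG-13, the small molecule that brings the tag to a ubiquitin ligase. The 2 h and 8 h libraries of the line, 3 of each, entered the same fit. The comparison line, DPY30-mAID, is the same type of cell with an auxin-inducible degron on DPY30, and it differs in agent as well as in target. The labels do not say whether the 3 libraries of a time point came from separate cultures, whereas the study's figure legends call them biological replicates. The p-values measure the spread between these libraries.

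RBBP5 is a core subunit, with WDR5, ASH2L and DPY30, of the SET1/COMPASS family of complexes that methylate lysine 4 of histone H3. Trimethylation (H3K4me3) marks the promoters of active genes, the SET1 enzymes deposit most of it, and the MLL3/4 enzymes place monomethylation at enhancers. In embryonic stem cells these complexes are needed for normal expression of many housekeeping and developmental genes. The question of the time course was what happens to RNA synthesis once the complexes are disabled, and 24 h was its last time point.

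The site of the degron is shown first because the Rbbp5 reads come from a transcript altered there. The guide RNA target used for the knock-in, with its PAM in capitals, lies on the plus strand at chr1:132503779-132503798 (GRCm38) in exon 15, the last of 15 exons of transcript ENSMUST00000027700, and its 20 bases contain the stop codon at chr1:132503790-132503792. The tag was thus joined upstream of the Rbbp5 3′ UTR, where the reads are counted. Rbbp5 reads then report the transcript of the tagged gene and not the loss of the protein, and the degradation of RBBP5 was not measured in these libraries.
Rbbp5 guide target: cagaactgctgtgaagaccgTGG

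The libraries held between 2074731 and 2852331 counted reads. In its group 0 h replicate 1 had the fewest reads (2165418, beside 2852331 and 2753787) and the highest T>C share (10.1%, beside 9.45% and 9.10%). The 10 embryonic stem cell markers (Pou5f1, Sox2, Nanog, Klf4, Esrrb, Zfp42, Tfcp2l1, Tdgf1, Dppa5a and Lin28a) summed to 7427–7575 total CPM (reads per 1000000 counted reads of the library) at 0 h and 7417–7542 at 24 h, and none of the 10 passed the test on total reads. Of markers for other cell types, the 6 chosen for primitive endoderm summed to 4.36–9.70 CPM at 0 h and 4.34–13.7 at 24 h, and Sox17 had at most 3 reads over the 6 libraries. The 6 trophectoderm markers fell between 14.7 and 28.6 CPM at 0 h and between 7.45 and 20.4 at 24 h, with Elf5 at 3 reads or fewer. The 6 neural markers gave 18.5–31.6 CPM against 17.7–27.0, with Dcx and Neurog2 at that floor, and the 8 mesoderm and fibroblast markers gave 0.351–4.36 against 0.482–6.99, with Col1a1, Dcn, Lum and Postn at it. Longer lists, which also hold matrix and cytoskeletal genes, gave more reads. The 15 primitive endoderm genes summed to 800–845 CPM at 0 h and 574–613 at 24 h, mostly from Sparc (392–458 against 173–201, called lower in total reads), Lamc1 and Lamb1. These did not move together. Lamb1 was lower (116–161 against 70.0–83.9), whereas Lamc1 (129–230 against 232–259) and Lama1 (29.1–54.0 against 47.4–78.7) were higher, none of them called. The 13 trophectoderm and epithelial genes gave 117–153 CPM against 91.8–124, with Tfap2c at 57.2–86.4 against 65.7–94.5 and Krt8, called lower in total reads, at 22.2–29.1 against 3.54–10.1. The 11 neural genes gave 77.1–88.2 against 86.8–133 and the 12 mesoderm and fibroblast genes 331–420 against 382–429, the latter mostly from Fn1 and Vim. The part of other cell types in the changes was not tested. Shifts in the mix of cell types and shifts in RNA per cell cannot be told apart in such bulk libraries.

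At 24 h labelled reads formed a much smaller part of each library than at 0 h. The T>C share of all counted reads was 10.1%, 9.45% and 9.10% in the 3 libraries at 0 h and 4.85%, 5.21% and 5.33% at 24 h. The groups did not overlap, the difference of the means was −4.43 percentage points, and the mean share at 24 h was 0.536 times that at 0 h (exact permutation test, two-sided p = 0.1, which is the lower limit for 3 against 3 libraries). The 2 h libraries (mean 7.63% ± 0.272, SD, n = 3) and the 8 h libraries (6.94% ± 0.410) lay between them. Leaving out genes with more than 20% of reads that mapped to several places, the means were 10.9% and 5.95%. The rate of conversion per covered T was 0.593% at 0 h and 0.286% at 24 h, and the number of conversions per T>C read was 1.16 ± 0.00606 at 0 h and 1.05 ± 0.00279 at 24 h (n = 3 each). Fewer conversions per labelled read accompany the lower share, and the part that 4SU uptake or incorporation has in either value was not tested. As a background, the 2 Quant-seq libraries of DPY30-mAID cells made without 4SU had T>C shares of 0.338% and 0.303% over the same intervals, where their reads covered 11.6 and 11.5 T each, against 18.4 to 19.0 in the 6 libraries compared. Per covered T their conversion rates were 0.0279% and 0.0252%. In DPY30-mAID cells the share was 15.9% ± 0.463 at 0 h and 15.3% ± 0.664 at 24 h (exact permutation p = 0.3, n = 3 each). The libraries of that line between these times were lower, at 14.4–14.9% at 2 h and at 13.0%, 9.82% and 5.51% at 8 h.

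**Figure D1:**
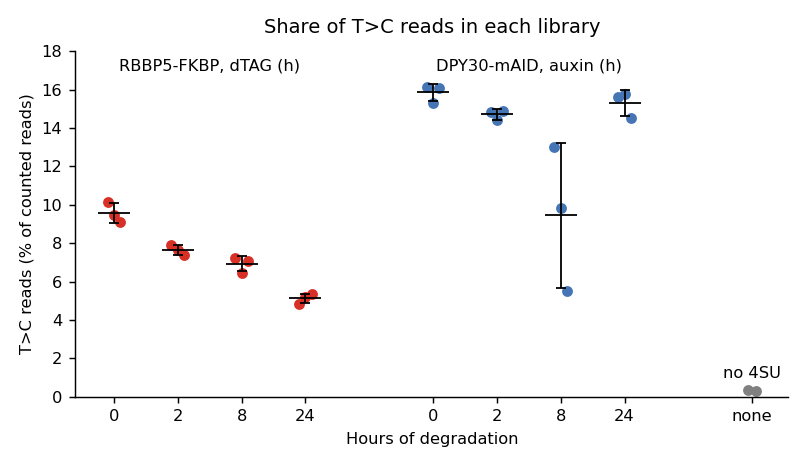
T>C reads as a percentage of all counted reads (vertical axis) in each library (points) of RBBP5-FKBP and DPY30-mAID cells by hours of degradation, with the mean (horizontal line) and SD (bars) of the 3 libraries, and in the 2 DPY30-mAID Quant-seq libraries made without 4SU. The 3 RBBP5-FKBP libraries at 24 h sit between 4.85% and 5.33%, under all libraries of the line at 0 h (9.10% to 10.1%).

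Gene by gene, most genes had fewer labelled reads at 24 h than at 0 h, by amounts that differed widely. T>C reads were scaled to the total reads of each library, so that a change shared by all genes stays in the values, and the 4761 genes that averaged 10 or more T>C reads at any of the 4 time points were tested with edgeR's quasi-likelihood test. Of these, 4180 (87.8%) had a log2 fold change (24 h over 0 h) under 0. The median was −0.91, the quartiles −1.39 and −0.39, and the lowest and highest 5% of genes began at −2.29 and 0.43. The interquartile range of 1.00 on the log2 scale was wider than the 0.52 seen for total reads of the same genes. At an adjusted p under 0.05 and a change of more than 1 on the log2 scale, 1088 genes were downregulated, 22.9% of those tested, and 9 were upregulated, 0.189%. Every 24 h library was under every 0 h library for 1838 genes (38.6%), and 1007 of the 1088 downregulated genes were among them. A log2 fold change under −2 was fitted to 410 genes, of which 277 were called, and 7 genes had no T>C read in any 24 h library. Scaled to T>C reads, which takes out most of the shared part, the median was −0.20 and the calls were 96 lower (2.02%) and 16 higher (0.336%). The median gene thus lay under 0 on this scale too. Depth limits the calls, since 1189 genes had 50 or more T>C reads on average at 0 h and 161 had 200 or more.

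**Figure D2:**
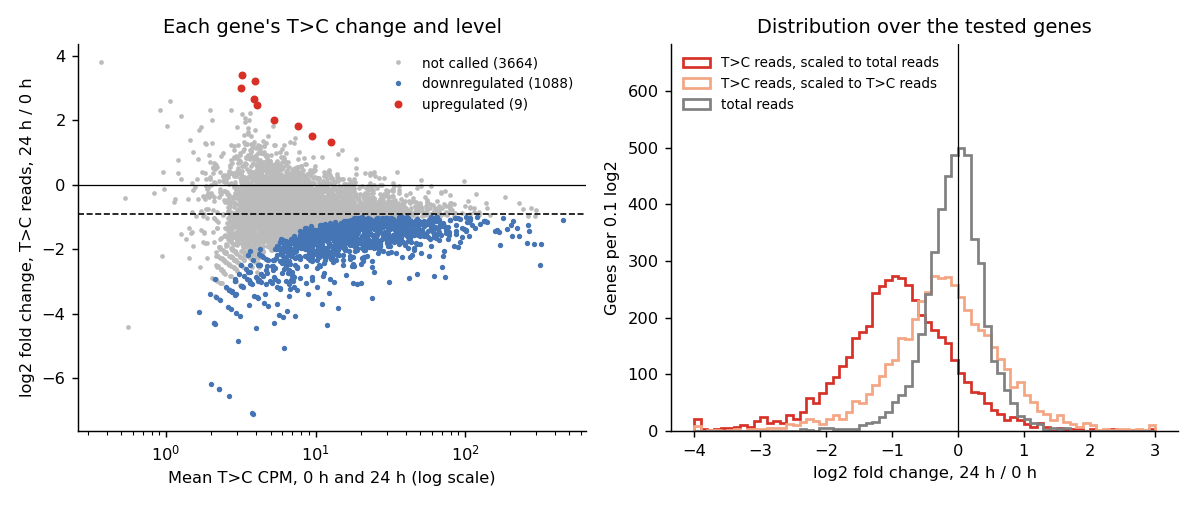
Left, log2 fold change of T>C reads (24 h over 0 h, scaled to total reads) against the mean T>C CPM of the 0 h and 24 h libraries on a log axis for the 4761 genes tested, with the 1088 downregulated and 9 upregulated genes coloured and the median dashed; right, histograms of the log2 fold changes of T>C reads under both scalings and of total reads, with values past the axis placed in the end bins. The histogram of T>C reads is centred at −0.91 with total reads as the scale and at −0.20 with T>C reads as the scale, and that of total reads at −0.025.

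The targeted gene itself lost labelled reads. Rbbp5 gave 16.2, 11.2 and 21.4 T>C CPM (T>C reads per 1000000 counted reads) at 0 h and 3.54, 4.19 and 9.16 at 24 h, with no overlap, and its log2 fold change was −1.56 ± 0.54 (SE, adjusted p = 0.023). It was one of the downregulated genes, but lost its call without 24 h replicate 1, 24 h replicate 2 or 0 h replicate 3 (adjusted p = 0.10, 0.087 and 0.096). Scaled to T>C reads the value was −0.88 (adjusted p = 0.44), and its total reads went from a mean of 56.3 to 36.2 CPM (−0.67, adjusted p = 0.12). Dpy30, the partner subunit degraded in the other line, gave 16.2, 29.1 and 20.7 T>C CPM at 0 h and between 9.78 and 29.9 at 24 h, so its groups overlapped and it did not pass the test (−0.39 ± 0.41, adjusted p = 0.49).

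Of 22 listed subunits of the H3K4 methyltransferase complexes, 16 were tested and 5 were downregulated (31.3%, beside 22.9% of all genes), with a median of −0.80 beside −0.91 for all genes. With T>C reads as the scale 0 of these 16 were called (edgeR, with 1 lower at an unadjusted p under 0.05), and 0 of the 4 demethylases named next (0 at an unadjusted p under 0.05). Of all genes 2.02% were called lower on that scale. Setd1b, a SET1-type catalytic subunit, went from 70.2, 46.6 and 62.1 T>C CPM to 21.7, 18.6 and 21.2, well under every 0 h library (−1.57 ± 0.28, adjusted p = 1.5e-05). Hcfc1, Kdm6a and Ash2l were the others called beside Rbbp5, at −1.16, −1.10 and −1.11. Wdr82 (−0.93) and Wdr5 (−0.62, adjusted p = 0.15) did not reach the call. Among 4 tested H3K4 demethylases, Kdm5b (−1.07 ± 0.21) and Kdm5a (−1.72 ± 0.53) were downregulated, and Kdm1a (−0.55) and Kdm5c (−0.77) were not. No gene of either list was called in total reads at 24 h (edgeR), where 3 reached an unadjusted p under 0.05 upwards and 1 downwards, and DESeq2 called none.

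The genes with the lowest values, taken among those with at least 50 T>C reads at 0 h, at most 20% multimapped reads and no overlap between the groups, came from several processes. Phlda1, a pleckstrin-homology protein induced by growth factor signals, fell furthest, from 25.4, 13.0 and 30.1 T>C CPM at 0 h to 0.443, 0 and 2.89 at 24 h (log2 fold change −4.35 ± 0.72, adjusted p = 3.3e-06). Its total reads fell by 3.16 on the log2 scale, from a mean of 75.2 to 8.56 CPM. Ccnd2, which encodes the G1 cyclin D2, fell from 23.1, 31.2 and 25.4 T>C CPM to 1.77, 2.80 and 0.964 (−3.84 ± 0.55, adjusted p = 1.2e-07), and all 3 libraries at 24 h were close to the floor. Cavin1, a coat protein of caveolae, went from 27.3, 9.82 and 30.5 to 1.77, 1.40 and 3.37 T>C CPM (−3.37 ± 0.59), and the 0 h libraries spread more than the 24 h ones.

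Nrp2, a co-receptor for semaphorins and VEGF, had tight groups on both sides, 62.8, 42.1 and 59.9 T>C CPM against 5.32, 6.99 and 8.19 (−3.03 ± 0.39, adjusted p = 6.8e-09). The junctional adhesion protein gene Mpzl2 fell by 3.04 on the log2 scale, from 38.8, 28.4 and 39.6 to 2.22, 2.33 and 8.68 T>C CPM. Kif23 and Incenp, which act in cytokinesis and in the chromosomal passenger complex, fell by 3.01 and 2.91. Rsrp1, an arginine- and serine-rich protein, fell by 3.05, from 25.9, 30.5 and 38.5 to 3.10, 4.19 and 4.34 T>C CPM. In each of these 8 genes the highest 24 h library was under the lowest 0 h library, which the choice of genes required.

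The 8 downregulated genes with the highest labelled level at 0 h were measured with far more reads. Mat2a, which makes S-adenosylmethionine, the methyl donor for histone methylation, fell from 588, 513 and 503 T>C CPM to 81.1, 119 and 93.5 (−2.48 ± 0.16, adjusted p = 1.3e-19), and its total reads fell from a mean of 2280 to 840 CPM (−1.47). Jarid2, a Polycomb partner, went from 531, 367 and 453 to 123, 132 and 133 T>C CPM (−1.83 ± 0.16), so that its 24 h libraries were nearly equal. Jade1, a scaffold of the HBO1 acetyltransferase complex, went from 434, 517 and 544 to 147, 144 and 138 (−1.84 ± 0.16). For Actb, cytoplasmic β-actin, the values were 418, 388 and 409 at 0 h and 118, 107 and 129 at 24 h (−1.81 ± 0.17, adjusted p = 3.9e-13), whereas total Actb reads differed by −0.18 (adjusted p = 0.31). Sox2, a core pluripotency factor, fell from 384, 319 and 248 to 140, 135 and 111 T>C CPM (−1.33 ± 0.17). The stress granule protein gene G3bp2 fell by 1.86, Nufip2 by 1.59 and the tubulin gene Tubb5 by 1.02. Of these 8, Tubb5 lost its call when T>C reads were the scale (−0.30, adjusted p = 0.44), and Nufip2 (−0.87) and Sox2 (−0.60) stayed under an adjusted p of 0.05 with a change smaller than 1.

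**Figure D3:**
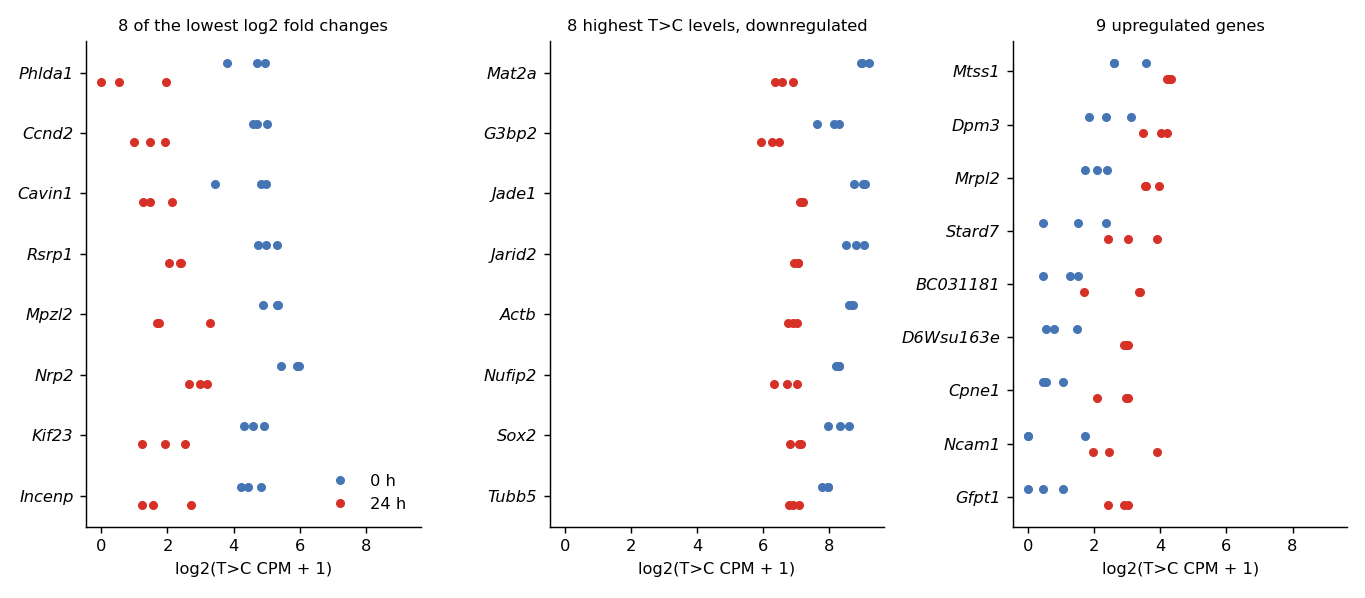
T>C CPM, as log2(CPM + 1), of 8 genes among those with the lowest log2 fold change, the 8 downregulated genes with the highest 0 h level and the 9 upregulated genes, with one point for each of the 3 libraries at 0 h (blue) and at 24 h (red). In the left and middle panels all 24 h points of a gene lie under all its 0 h points, as the rule that chose these genes requires.

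The 9 upregulated genes were all low in labelled reads at 0 h. Mtss1, a membrane-bending actin regulator, had the most, rising from 5.08, 10.9 and 5.08 T>C CPM to 19.1, 18.2 and 17.4 (1.32 ± 0.47, adjusted p = 0.030). Dpm3, a subunit of the mannosyl transferase that feeds protein glycosylation, rose from 4.16, 7.71 and 2.54 to 15.1, 17.2 and 10.1 (1.51 ± 0.54, adjusted p = 0.029). Mrpl2, a mitochondrial ribosomal protein, had 2.31, 4.21 and 3.27 against 14.6, 10.7 and 10.6. Gfpt1, the first enzyme of the hexosamine pathway, had 0, 3 and 1 T>C reads at 0 h and 16, 14 and 9 at 24 h. The others were Stard7, BC031181, D6Wsu163e, Cpne1 and Ncam1. Of the 9 genes 7 averaged under 10 T>C reads at 0 h, so that they were tested only because a later time point was higher, and no fold is given for these 7. For Ncam1 a single 24 h library carried most of the rise (14.0 T>C CPM beside 4.43 and 2.89). Mtss1 lost its call without any 1 library other than 0 h replicate 2 (1.12 to 1.36, adjusted p = 0.053 to 0.10), and Dpm3 without 0 h replicate 1 or 3 or 24 h replicate 1 or 2 (1.19 to 1.46, adjusted p = 0.068 to 0.12). None of the 9 reached 50 T>C reads on average at 0 h. Among the 1189 genes that did, the 6 highest values ran from 0.29 to 0.40 and none passed the test. They were the outer mitochondrial membrane protein gene Tomm7 (30.0, 18.2 and 14.9 T>C CPM against 28.8, 30.3 and 25.6), the repressor gene Klf3 (32.8, 33.3 and 24.0 against 42.5, 35.4 and 42.9), Ubald2, Rps24, Lamtor1 and Rps19. For Klf3 the total reads rose by 1.07 on the log2 scale, and its labelled reads were called higher when T>C reads were the scale (1.11). Of the reads of Ubald2, Lamtor1 and Rps19, 48.0%, 49.0% and 85.2% mapped to several places, so that related genes may share them.

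Cholesterol synthesis stood lowest of the 29 gene lists with 5 or more tested members. Of its 25 genes 16 were tested, all 16 were under 0, and 12 were downregulated (75.0% of them, beside 22.9% of all genes), with a median of −2.23 on the main scale and −1.52 when T>C reads were the scale, where 7 were called, beside 2.02% of all genes. At the head of the pathway, Hmgcs1 fell from 136, 104 and 148 T>C CPM to 15.9, 21.4 and 16.9 (−2.87 ± 0.25, adjusted p = 2.2e-14). Its groups did not overlap. Insig1, which retains the SREBP transport complex in the endoplasmic reticulum, fell from 104, 70.1 and 74.8 T>C CPM to 15.9, 23.8 and 18.3 (−2.13 ± 0.27). The later enzymes Lss and Dhcr7 had fitted values of −3.76 and −3.70 with SEs of 1.02 and 0.93, on few reads. Msmo1 (−1.84), Sqle (−1.97), Idi1 (−2.47, with 94.9% multimapped reads), Stard4 (−2.33) and Sc5d (−1.46, adjusted p = 0.042, lost without 0 h replicate 1 at an adjusted p of 0.26) were also called. Nsdhl (−1.19, adjusted p = 0.36), Acat2 (−1.02), Hsd17b7 (−0.92) and Srebf2 (−0.62), the gene of the transcription factor that drives the pathway, were not. Here the whole RNA pool moved too, since 10 of the 16 were called lower in total reads, beside 1.86% of all genes tested on them (Hmgcs1 at −1.32). The list's median T>C change was −0.33 at 2 h and −1.55 at 8 h.

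The 250 bases before the RefSeq start (GRCm38.p6) are shown for 3 of the genes called, picked because they hold 2 or more CCAAT boxes, the site of NF-Y, a factor known to act beside SREBP (Hmgcs1 chr13:119690101-119690350, plus strand; Idi1 chr13:8885356-8885605, plus strand; Msmo1 chr8:64733579-64733828, minus strand). Capitals mark CCAAT, which reads ATTGG where it lies on the other strand, and in Hmgcs1 also the sterol regulatory element TCACNCCAC. The letters were searched on both strands of 250 bases before to 50 after the start, and the motifs do not overlap each other here.
Hmgcs1: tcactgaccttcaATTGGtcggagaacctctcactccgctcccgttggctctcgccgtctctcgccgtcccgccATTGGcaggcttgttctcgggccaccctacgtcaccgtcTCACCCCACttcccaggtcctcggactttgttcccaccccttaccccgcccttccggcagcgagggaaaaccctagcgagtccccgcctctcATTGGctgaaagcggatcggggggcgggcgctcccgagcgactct
Idi1: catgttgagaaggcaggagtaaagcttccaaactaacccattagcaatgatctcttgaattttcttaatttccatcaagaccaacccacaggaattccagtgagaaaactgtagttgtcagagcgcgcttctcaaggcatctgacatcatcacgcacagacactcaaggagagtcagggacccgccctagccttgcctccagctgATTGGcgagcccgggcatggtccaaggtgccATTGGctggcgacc
Msmo1: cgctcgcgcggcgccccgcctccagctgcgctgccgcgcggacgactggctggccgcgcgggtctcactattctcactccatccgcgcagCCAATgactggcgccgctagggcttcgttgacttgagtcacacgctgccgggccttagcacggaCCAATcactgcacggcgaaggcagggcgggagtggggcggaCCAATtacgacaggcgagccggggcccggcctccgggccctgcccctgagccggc
The number of boxes did not follow the calls throughout, since Insig1, Lss and Sc5d, which were called, hold 1 each, and Nsdhl and Hsd17b7, which were not, hold 4 and 3. Dhcr7, called but not shown, holds 2 at 1 of its RefSeq starts and 0 at the others. Srebf2 and Acat2, which were not called, hold 1 and 0. CCAAT was present in 10 of the 11 list members with a promoter in the table, beside 41.1% of the promoters of all 27025 genes, 43.6% of those of the genes tested and 44.0% of those of the downregulated genes. TCACNCCAC was present in 1 of the 11 (Hmgcs1), 1.44% of all, 1.35% of tested and 1.16% of downregulated genes, and TATAAA, searched on the coding strand, in none of the 11, 9.77%, 5.10% and 6.27%. The motifs were chosen after the values of the list had been seen, a match is a description of the letters, and a missing match says only that they are not in this window.

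The signalling and epiblast lists had medians under that of all genes (−0.91), and their calls stand beside 22.9% of all genes. Of 9 tested FGF and ERK feedback genes 6 were downregulated (66.7%, median −1.45), with Etv5 at −1.45, Spry2 at −1.03, Spred1 at −1.91, Dusp6 at −1.33, Il17rd at −2.02 and Phlda1 at −4.35. In total reads 3 of these 9 were lower (median −0.52), beside 1.86% of all genes tested on them. The T>C share was lower for 1 of the 9, beside 20.4% of all genes. Spred1, an inhibitor of the ERK cascade, went from 46.2, 51.9 and 50.8 T>C CPM to 19.5, 13.0 and 7.71, and its total reads fell as well (−1.07). Of 11 Nodal and BMP feedback genes 6 were downregulated (54.5%, median −1.18), namely Tgif1 (−1.18), Id1 (−1.55), Id3 (−2.17), Smad7 (−1.29), Skil (−1.55) and Ski (−1.23). Lefty1, a secreted Nodal inhibitor, had a value of 1.45 (adjusted p = 0.055), and was called higher in total reads (1.65) and when T>C reads were the scale (2.15), where 0 members of the list were called lower (3 at an unadjusted p under 0.05, edgeR). Id1, a helix-loop-helix inhibitor downstream of BMP, went from 50.3, 60.6 and 49.0 to 15.9, 21.0 and 18.8 T>C CPM with no overlap. Of 8 formative and epiblast genes 4 were called (50.0%, median −1.63), including Otx2 (−1.69), Sox4 (−1.94) and Mycn (−1.57), and of 13 immediate early genes 3 (23.1%, median −0.96). With T>C reads as the scale the calls were 2 of the 9 FGF and ERK genes, 1 of the 13 immediate early genes and 0 of the 8 epiblast genes (3 at an unadjusted p under 0.05, edgeR). On that scale 2.02% of all genes were called lower.

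All 29 tested naive pluripotency factors had values under 0 and 10 were downregulated (34.5%), beside 87.8% under 0 and 22.9% downregulated over all genes, with a median of −0.81, close to that of all genes. With T>C reads as the scale 4 of the 29 were called lower, beside 2.02% of all genes. Beside Sox2 and Jarid2, the factors Klf5 (−1.78) and Lin28a (−2.17) fell. Lin28a, an RNA-binding protein that blocks let-7, went from 92.4, 65.6 and 59.5 to 16.4, 18.6 and 14.0 T>C CPM. Klf2 went from 266, 286 and 258 to 184, 182 and 194 (−0.56, adjusted p = 0.0068) and fell short of the threshold of 1, while its total reads were higher at 24 h (0.61). None of the 29 was called in total reads (10 lower and 9 higher at an unadjusted p under 0.05 in edgeR, none by DESeq2). The T>C share of their reads, tested in a model with the other reads of each gene, was called lower for 19 of the 29, beside 20.4% of all genes. The list had a median level of 55.5 T>C CPM at 0 h, against 9.17 over all genes. Calls were more frequent among genes with many labelled reads, as the classes by read number show. The counts of this list are therefore not read as an excess over all genes.

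Housekeeping lists lay on both sides of the median of all genes. Of 95 tested ribosome biogenesis factors 34 were downregulated (35.8%, beside 22.9% of all genes, median −1.11), and 1 of the 95 was with T>C reads as the scale, beside 2.02% of all genes. Ncl (nucleolin) went from 143, 175 and 210 to 63.8, 72.7 and 96.9 T>C CPM (−1.21), and Rrp1b from 55.4, 39.3 and 42.1 to 11.5, 11.7 and 10.6 (−2.04). Splicing factors (17 of 45, median −0.96), translation initiation factors (14 of 37, −0.98) and heat shock and chaperone genes (11 of 20, −1.09) followed, each with 2 members called when T>C reads were the scale. The last 3 lists had median levels of 27.3, 21.2 and 46.5 T>C CPM at 0 h, against 9.17 over all genes, and calls were more frequent among genes with many labelled reads, as the classes by read number show. Eif1a, which scans for start codons with the small ribosomal subunit, went from 111, 99.2 and 136 to 36.8, 19.6 and 29.4 T>C CPM (−2.05), and Hspa5, the chaperone BiP of the endoplasmic reticulum, from 185, 136 and 104 to 47.8, 29.4 and 36.1 (−1.94). The medians were shallower for cytosolic ribosomal proteins (12 of 75 called, −0.67), respiratory chain subunits (3 of 54, −0.67), mitochondrial ribosomal proteins (5 of 49, −0.68) and mitosis genes (9 of 43, −0.66). These 4 were slightly above 0 when T>C reads were the scale (0.04, 0.03, 0.01 and 0.05), where the median of all genes was −0.20. Mrpl2, called upregulated, was tested only because a later time point was higher. At 0 h the median labelled shares of the 4 lists were 3.00%, 3.81%, 9.60% and 12.5%, beside 12.5% over all genes. T>C reads that arise without 4SU weigh more where this share is low. They were not subtracted, and their part in the shallower medians was not tested. Among the 75 cytosolic ribosomal protein genes 60 had more than 20% multimapped reads, so reads may be shared with related copies. Rpl8, which maps almost uniquely, had overlapping groups (179, 104 and 105 against 108, 116 and 101 T>C CPM).

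Of 10 tubulin genes 5 were downregulated (median −1.34), beside 22.9% of all genes, though 78.7% of the Tuba1b reads and 33.3% of the Tuba1c reads mapped to several places. Of 15 actin, SRF and YAP genes 8 were (median −1.21), among them Yap1 (−1.48), Tagln2 (−2.14) and Ajuba (−1.71). In the methionine cycle 5 of 10 were called (median −1.08), with Mat2a joined by Srm, which makes spermidine (48.0, 45.6 and 29.4 against 13.7, 7.45 and 12.1 T>C CPM, −1.91), Odc1, Mat2b and Mtap. Of 40 DNA replication and G1/S genes 12 were called (median −0.84), including Ccne1 (85.0, 75.0 and 55.9 against 16.8, 20.0 and 19.3 T>C CPM, −1.97), the licensing factor gene Cdc6 (−2.01) and Pcna (−1.47). Polycomb subunits (5 of 15, −0.84), aminoacyl-tRNA synthetases (4 of 17, −0.82), proteasome subunits (6 of 32, −0.81), DNA methylation enzymes (2 of 9, −1.15), the Myc and Max network (2 of 7, −1.02), p53 and its targets (4 of 20, −0.55), hypoxia-responsive genes (2 of 17, −0.74) and integrated stress response genes (1 of 9, −0.77) completed the broad lists. Of these, the synthetases (23.5%), DNA methylation enzymes (22.2%), p53 list (20.0%) and proteasome (18.8%) were near or under the share of all genes, and the hypoxia (11.8%) and stress response (11.1%) lists were furthest under it. On the T>C-read scale the calls were 0 of 10 tubulin genes (3 lower at an unadjusted p under 0.05, edgeR), 1 of 15 actin, SRF and YAP genes, 1 of 10 methionine cycle genes, 3 of 40 replication genes and 1 of 15 Polycomb genes. Of all genes 2.02% were called lower on this scale. The p53 list was slightly above 0 when T>C reads were the scale (0.15), where the median of all genes was −0.20.

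The machinery of transcription itself gave values near the median of all genes. Of 31 tested genes for pausing, elongation and Integrator 6 were downregulated (19.4%, median −0.86), and of 27 RNA polymerase II and general factor genes 1 was (3.70%, median −0.85), beside 22.9% of all genes. With T>C reads as the scale 0 of the 31 and 0 of the 27 were called, beside 2.02% of all genes. At an unadjusted p under 0.05 (edgeR) 4 of the 31 and 1 of the 27 were lower on that scale, and 1 of each list was higher. Hexim1, the inhibitor of the pause-release kinase P-TEFb, went from 39.2, 45.9 and 40.3 T>C CPM to between 10.2 and 14.0 (−1.82). Ccnt1, the cyclin of P-TEFb, fell by 1.23, Ints5 of Integrator by 2.38, and Rtf1 of the PAF complex by 2.05. Polr2a, the largest subunit of the polymerase, had 45.7, 35.1 and 45.8 against 23.9, 20.5 and 27.5 T>C CPM, with no overlap, and its change of −0.85 (adjusted p = 0.024) was under the size asked for a call. Taf8 (−3.73 ± 1.22), on few reads, was the general factor called. In total reads no gene of either list was called, with 4 lower and 6 higher at an unadjusted p under 0.05 (edgeR), and none by DESeq2.

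Few members of the lists for other lineages had enough labelled reads, too few to set their counts against the 22.9% of all genes. Primitive endoderm markers had 4 tested (Sparc −1.25 and Lamb1 −2.38 called, Lamc1 at 0.10 and Lama1 at 0.24 not called, median −0.57, and 0.12 when T>C reads were the scale), mesoderm and fibroblast markers 2 (Vim called at −1.56), trophectoderm 1 (Tfap2c, −1.28), neural 1 (Tubb3, 0.14, not called), and cleavage-stage and germline genes 0. The lists were described by counts and medians alone, since members of a list are not replicates.

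**Figure D4:**
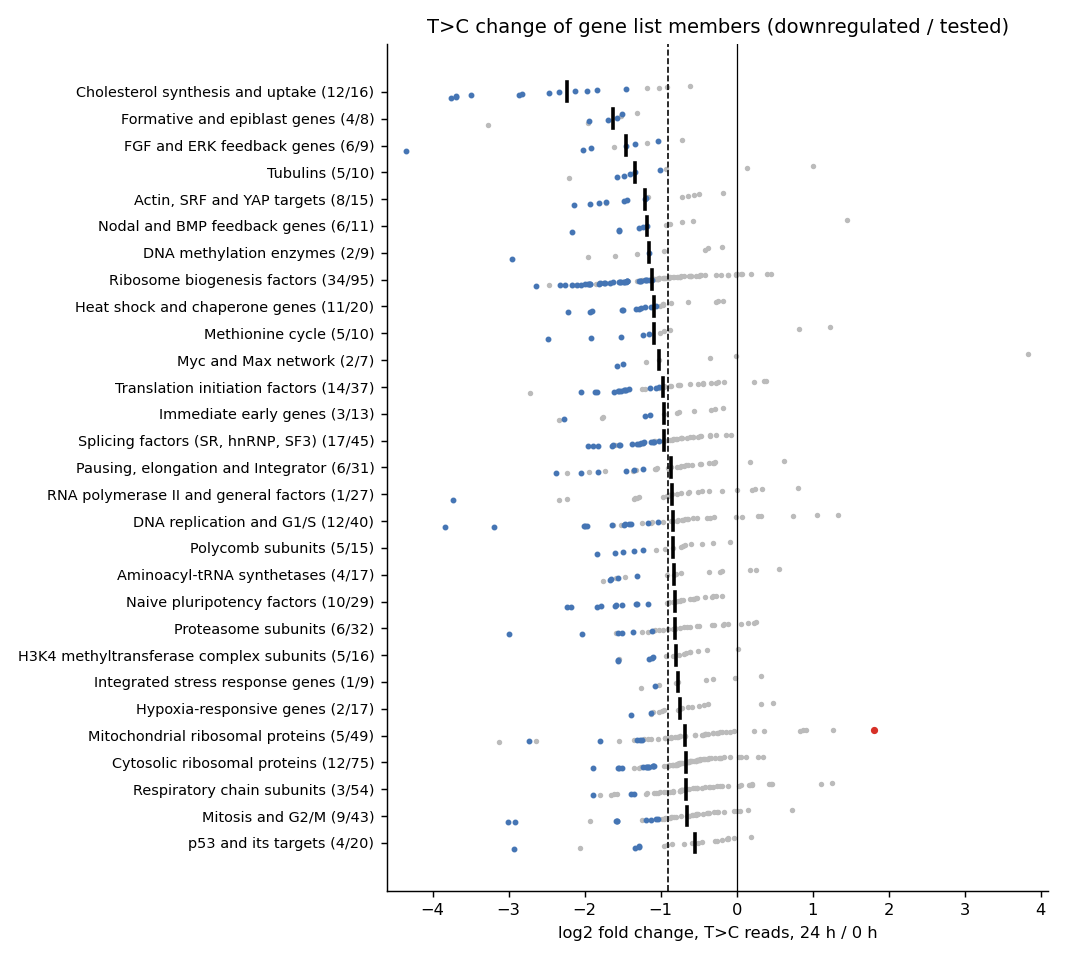
Log2 fold change of T>C reads (24 h over 0 h, scaled to total reads) of the tested members (points) of 29 gene lists, with downregulated members in blue, the upregulated one in red, each list's median as a bar and the median of all genes dashed. The counts beside each name are downregulated and tested members. The upregulated one, Mrpl2, averaged under 10 T>C reads at 0 h and was tested only because a later time point was higher. The cholesterol list has the lowest median (−2.23), and the respiratory chain and cytosolic ribosomal protein lists sit at −0.67, above the −0.91 of all genes.

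Total reads of the same libraries changed far less and in both directions. Of 9676 genes tested on total reads 180 (1.86%) were lower and 158 (1.63%) higher at 24 h. Over the 4761 genes of the labelled comparison the median total change was −0.025, with 112 lower and 54 higher. Labelled and total changes differed for some genes. The nucleoside transporter gene Slc29a1 had 34.2, 29.8 and 20.0 T>C CPM at 0 h and 8.42, 5.59 and 11.6 at 24 h (−1.74 ± 0.39), with total reads of 144 CPM on average at 0 h and 220 at 24 h (0.59, under the size asked for a call). Atf4, a transcription factor of the stress response, kept a like number of labelled reads (33.2, 18.6 and 21.4 against 33.2, 21.4 and 18.8 T>C CPM) while its total reads rose by 1.03, and Ddit4, an inhibitor of mTORC1, rose by 1.51 in total reads with labelled groups that overlapped (0.33, adjusted p = 0.55).

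The T>C share of each gene's own reads does not depend on how libraries are scaled to each other. By this measure 970 genes (20.4%) had a lower and 5 (0.105%) a higher labelled share at 24 h, with a median of −0.97 in log2 odds. The count of 970 was 524 without 0 h replicate 1 and 595 without 24 h replicate 1, and that of 5 was 3 without either 24 h replicate 1 or 2. Among the lists the share was called lower for 1 of 9 FGF and ERK genes, 2 of 8 formative and epiblast genes, 3 of 11 Nodal and BMP genes, 4 of 13 immediate early genes, 7 of 16 cholesterol genes and 5 of 16 H3K4 methyltransferase subunits. It was called lower for 36 of 95 ribosome biogenesis factors, 20 of 45 splicing factors, 16 of 37 translation initiation factors, 12 of 20 heat shock genes, 20 of 75 cytosolic ribosomal proteins and 7 of 54 respiratory chain subunits. The lowest among called genes with 50 or more T>C reads at 0 h were Ccnd2 (−3.04), the ribosome biogenesis gene Sdad1 (−2.85), the imprinted retrotransposon-derived gene Peg10 (−2.71) and Uspl1, a SUMO isopeptidase gene (−2.68, 42.0, 45.9 and 39.2 against 3.99, 11.2 and 4.82 T>C CPM). The called genes nearest to the threshold were Dnaja1, Tubb4b, Atp5g1 and Slc6a6, at −1.01 each, and Dnaja1 (55.4%), Tubb4b (68.4%) and Atp5g1 (92.0%) have many multimapped reads. For Slc6a6, the taurine transporter gene, the lower share came with labelled reads of 35.1, 57.9 and 59.6 against 62.5, 45.2 and 45.3 T>C CPM (−0.03) and total reads higher by 0.84. Phlda1 and Cavin1, among the lowest genes in labelled reads, were not called in the share (−1.51, adjusted p = 0.29, and −1.02, adjusted p = 0.16), and their total reads fell by 3.16 and 2.31.

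**Figure D5:**
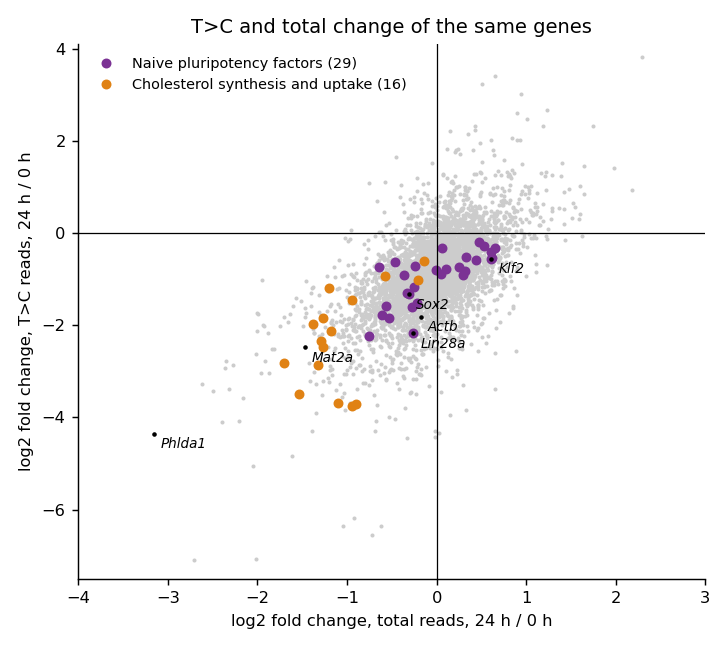
Log2 fold change of T>C reads against that of total reads (24 h over 0 h) for the genes tested (grey), with the 29 naive pluripotency factors in purple, the 16 cholesterol genes in orange and 6 genes of the text named. The grey cloud is centred near 0 on the total axis (median −0.025) and at −0.91 on the T>C axis, and Phlda1 and Mat2a lie low on both.

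Between 8 h and 24 h, a contrast with no 0 h library, 44 genes (0.924%) were lower and 0 were higher (0%), with 667 lower and 26 higher at an unadjusted p under 0.05 by edgeR, and 101 lower and 1 higher by DESeq2. With T>C reads as the scale 0 were lower (210 at an unadjusted p under 0.05, edgeR), and 3 were with only the libraries of the contrast. The 5 lowest with 50 or more T>C reads at 8 h were Sparc (−1.78 ± 0.41), an extracellular matrix protein gene, Slc29a1 (−1.64 ± 0.39), Mta2 (−1.47 ± 0.37) of the NuRD complex, the ephrin receptor gene Epha4 (−1.44 ± 0.30) and Farsb (−1.41 ± 0.39), a phenylalanyl-tRNA synthetase subunit. Each lost its call without at least 1 of the 6 libraries of the contrast, and the count of 44 was 11 without 24 h replicate 1, 20 without 24 h replicate 2 and 10 without 8 h replicate 1. Each of these genes was also downregulated against 0 h, and the contrasts share the 24 h libraries. Other genes did not differ between 8 h and 24 h beyond their error, such as Nrp2 (0.29 ± 0.45 between the times) and Jade1 (−0.27 ± 0.16, adjusted p = 0.42). Jarid2 (−0.94), Sox2 (−0.75) and Actb (−0.70) went on down between 8 h and 24 h at adjusted p of 0.00051, 0.015 and 0.024, without reaching a change of 1.

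The 24 h change was set against that in DPY30-mAID cells in 1 fit of 24 libraries, which tests the difference of the changes gene by gene with separate control libraries. Of 6404 genes, 524 (8.18%) moved lower in RBBP5-FKBP than in DPY30-mAID cells and 18 (0.281%) moved higher. With T>C reads as the scale the counts were 163 and 47. The lower count was 326 without DPY30-mAID 0 h replicate 2 and 338 without DPY30-mAID 24 h replicate 2, and the higher count was 10 without any 1 of the DPY30-mAID 0 h replicates and 11 and 6 without DPY30-mAID 24 h replicates 2 and 3. Phlda1 differed most among called genes with 50 or more T>C reads at 0 h (−4.54 ± 0.74). Its change was 0.17 ± 0.40 in DPY30-mAID cells and −4.35 in RBBP5-FKBP cells. Cavin1 (−4.13), 4921524J17Rik (−3.14) and Incenp (−3.13) came next, each with a DPY30-mAID change above 0 that was not called (0.74, 0.77 and 0.20). Actb (−2.24), Nufip2 (−2.13), Sox2 (−1.81), G3bp2 (−1.71) and Mat2a (−1.68) also moved lower in RBBP5-FKBP cells. For Mat2a the DPY30-mAID change was −0.81 ± 0.21 (adjusted p = 0.017). Jarid2 (−0.43, adjusted p = 0.45), Mpzl2 (−0.26, adjusted p = 0.89) and Tubb5 (−0.41, adjusted p = 0.52) gave no detectable difference, with DPY30-mAID changes of −1.42, −2.80 and −0.62. Slc6a6 was the gene with 50 or more T>C reads at 0 h that moved higher (1.39 ± 0.42, adjusted p = 0.023), at −1.44 in DPY30-mAID cells, and its call was lost without RBBP5-FKBP 0 h replicate 1 (1.20, adjusted p = 0.084). Of the 16 cholesterol genes 8 moved lower in RBBP5-FKBP cells, where the list's median was −2.23 beside −0.94 in the other line. Over the 4761 genes of the labelled comparison the medians were −0.91 and −0.12, so the list lay lower than all genes in both lines. Line, clone, agent and target protein differ together between the lines and cannot be told apart, and 1 of the DPY30-mAID 8 h libraries in the fit stood apart in labelled share (5.51%, beside 9.82% and 13.0%).

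Measures taken from libraries outside the comparison showed modest differences along the genes. By the T>C share in DPY30-mAID cells at 0 h, which is higher for RNAs that turn over fast, 18.3%, 23.7% and 26.6% of the genes in 3 equal classes from low to high were downregulated, with medians of −0.83, −0.94 and −0.96. In RBBP5-FKBP cells the median T>C share of the low class was 6.7% at 0 h and 3.77% at 24 h. That of the high class was 20.4% and 11.0%. T>C reads that arise without 4SU weigh more in the low class and were not subtracted. Their part in this order of the medians was not tested. By total level in the DPY30-mAID 0 h libraries the shares called were 9.07%, 19.2% and 40.3%, but the medians were −0.83, −0.88 and −0.97, and the median SE dropped from 0.85 to 0.40 from the lowest to the highest class. Counts of calls thus followed read depth more than the medians did. Promoter CpG content (observed over expected, RefSeq promoters for 3865 genes, 81.2% of those tested) gave 21.9%, 21.4% and 23.6% called and medians of −0.90, −0.90 and −0.91. Gene length gave 24.8%, 23.1% and 20.7% from short to long, with medians of −0.91, −0.92 and −0.89. By mean T>C reads in DPY30-mAID cells the shares were 7.75%, 14.9% and 45.9% and the medians −0.81, −0.80 and −1.03. With a minimum mean of 20 reads the difference between the outer classes turned from −0.21 to 0.10 for T>C reads and from −0.15 to 0.070 for total level, so no order by level is read from them.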

How the data were processed

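SLAM-seq was measured in RBBP5-FKBP cells at 0, 2, 8 and 24 h (3 libraries each) and in DPY30-mAID cells at the same times. The deposited values are read counts: the authors trimmed reads, mapped them to GRCm38 (mm10) and counted reads and T>C reads per 3′ UTR interval with SlamDunk 0.3.4, allowing multimapping and filtering variants, as their methods state (the file headers give the SlamDunk version and the annotation). The submitters' processing notes also name HISAT2 2.2.1 and featureCounts, which the methods give for the Quant-seq libraries, and Trim Galore, cutadapt and bcl2fastq. The methods mention a filter of 2 or more conversions for testing, whereas the deposited T>C counts include reads with 1 conversion and are used here.

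The counts of the 46420 intervals were summed per gene (20177 Ensembl IDs, all named from GENCODE M21). Replicate libraries differed by more than sampling noise, so each counts as 1 sample. Every column of per-sample values could be mapped to its sample. CPM here is T>C or total reads per 1000000 counted reads, with no further factor. Genes that averaged 10 or more reads at any time point were tested with edgeR 4.0.16 (quasi-likelihood, R 4.3.3) in 1 fit of 12 libraries, with library sizes and TMM factors from total reads, and in 1 fit of 24 libraries for the difference between lines. P-values were adjusted by Benjamini-Hochberg over all genes tested, and a call needs an adjusted p under 0.05 and a log2 change of more than 1. The T>C share was tested as the interaction of time and read class with a term for each library. DESeq2 1.42.0 and limma 3.58.1 gave alternatives. Library totals ran from 2074731 to 2852331 in the 6 libraries compared.

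Genes named are Rbbp5 and Dpy30; of downregulated genes with no overlap between groups and at most 20% multimapped reads, the 10 lowest with at least 50 T>C reads at 0 h and the 8 highest in T>C CPM; all upregulated genes; the 6 highest log2 changes among genes with at least 50 T>C reads; the called members and up to 4 highest of each list; the 4 highest and lowest called for the share and the line difference; and the 5 lowest for 24 h against 8 h. The 4 cholesterol genes not called, the markers and the promoters shown fall outside this rule, and Slc29a1, Atf4, Ddit4 and Rpl8 were picked out among the genes it names, all after their values were seen. The comparison, gene lists and tests were chosen with earlier results of these data known. Gene length classes and promoter motifs were added after the values had been seen. Spike-in reads named in the methods were not used here. Some genes that the rule names are not reported here.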

Additional observations from a re-analysis of the deposited data

Results flagged for a closer look

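The 24 h change in T>C reads differed between the degron lines for many genes, by a test of the difference itself. In the fit of 24 libraries 524 genes moved lower in RBBP5-FKBP than in DPY30-mAID cells and 18 moved higher. The largest differences among called genes with at least 50 T>C reads at 0 h were those of Phlda1 (−4.54 on the log2 scale), Cavin1 (−4.13), 4921524J17Rik (−3.14) and Incenp (−3.13). At the other end, Slc6a6 moved higher by 1.39, and Igf2bp1 (−1.02), Klf9 (−1.03) and Eif2s2 (−1.10) lay just past the threshold. These last 3 lost their calls when T>C reads were the scale and without several single libraries. Beside these differences, labelled reads made up a mean of 9.56% of RBBP5-FKBP libraries before and 5.13% after 24 h of treatment, and 15.9% and 15.3% of DPY30-mAID libraries. Conversions per T>C read were 1.16–1.17 before and 1.05 after in RBBP5-FKBP libraries, and 1.24–1.25 and 1.31–1.32 in DPY30-mAID libraries. The part of labelling in these differences was not tested. With T>C reads as the scale, which takes out most of the shared part, 163 genes were lower and 47 higher.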

How the results depend on the processing

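The count of downregulated genes at 24 h was within 1.5 times of 1088 under each alternative run other than scaling to T>C reads, which gave 96 lower and 16 higher. Without a filter 14 genes were higher. Leaving out 1 library gave 833–1016 lower and 5–8 higher, with 5 higher without 0 h replicate 3 and without 24 h replicate 2. For the T>C share, leaving out 1 library gave 524–854 lower (524 without 0 h replicate 1 and 595 without 24 h replicate 1) and 3–6 higher, and the higher genes were 3 with limma, 2 with a mean of at least 20 reads and 8 without a filter. For 24 h against 8 h the lower genes were 101 with DESeq2, 0 with T>C reads as the scale (210 at an unadjusted p under 0.05), 3 with only the libraries of the contrast and 10–37 when 1 library was left out, and 1 gene was higher with DESeq2, with a mean of at least 20 reads and in some fits without 1 library (0–1). For total reads, dropping the fold threshold gave 434 lower and 289 higher, and leaving out 1 library gave 133–176 lower and 93–173 higher (93 without 24 h replicate 1 and 101 without 24 h replicate 3). For the difference between lines, T>C reads as the scale gave 163 lower and 47 higher, no filter gave 11 higher, and leaving out 1 library gave 326–515 lower and 6–19 higher. The lowest of these came without DPY30-mAID 0 h replicate 2 (326 lower) and DPY30-mAID 24 h replicate 2 (338 lower), and 6 were higher without DPY30-mAID 24 h replicate 3. A mean of at least 20 reads, which removes low genes, turned the difference in median log2 change between the outer gene classes from below to above 0, at 0.070 for total level, 0.048 for promoter CpG and 0.10 for T>C reads, and turned that for gene length from 0.028 to −0.015. The drop in T>C share per library ran from −4.66 to −4.15 percentage points without 1 library. Other causes of these moves were not tested. Over all alternatives, 148 values of named genes lost and 6 gained a call, and 5 values, none of them called, changed sign: those of Dpy30 in T>C reads (−0.39 to 0.29 with T>C reads as the scale) and, without 1 library, in total reads (3 values), and that of Lamtor1 (0.30 to −0.015 without 0 h replicate 2).

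Replicate numbers are shared between the time points, but the deviations of same-numbered 0 h and 24 h libraries from their group means correlated at −0.0025, −0.0079 and 0.0073, so they do not pair the samples. With the replicate block, 1049 genes were lower and 7 higher in T>C reads, 912 and 4 in the share, 32 and 0 between 8 h and 24 h, 161 and 145 in total reads, and 486 and 13 in the difference between lines. Depth limits the low genes most, since the median SE of the log2 change was 0.85 in the lowest class by total level and 0.40 in the highest.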
